A study of Homo sapiens with 3 samples.

Results

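Kinesins are the motor proteins that walk along microtubules or take them apart, and their genes were described here in TC32. TC32 is an Ewing sarcoma cell line, driven by the fusion transcription factor EWS-FLI1. Members were taken by symbol: every gene named KIF followed by a digit, plus KIFC1, KIFC2 and KIFC3, also where the name stood in a locus that joins several genes. That gave 43 symbols on 48 loci among 22714 gene names, of which 42 encode motors and 1, KIF9-AS1, is an RNA antisense to KIF9. By their textbook roles 15 motors were put in a mitotic class, 17 in a transport class and 10 in neither. A mean deposited FPKM of at least 1 was reached by 30 of the 43, and these were compared: 14 mitotic, 12 transport and 4 other kinesins.

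The data are 3 RNA-seq libraries, 1 for each group. The first came from TC32 cells with knockdown of EWS-FLI1, the second from TC32 cells given 3 µM YK-4-279, a small molecule dissolved in DMSO and known to keep EWS-FLI1 from its partner DHX9, an RNA helicase, for 15 hours, and the third from TC32 cells labelled as wild-type control. Whether the control cells received DMSO or an unrelated hairpin, and the duration of the knockdown, are not in the labels. Without replicates no difference could be set against replicate spread, so no test or p-value is given, and "higher" and "lower" describe these libraries.

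Values are FPKM, fragments relative to locus length and to the fragments of the library. Deposited FPKM differed several-fold in overall scale between libraries, so each library was multiplied by a factor set on the median compared gene, 1.44 for the knockdown library, 2.12 for YK-4-279 and 0.326 for the control, and "scaled FPKM" means the result. A log2 ratio is the difference of log2(scaled FPKM + 1), which understates the change of scarce genes, and a gene was called where that ratio reached 1 in size in either direction. Standard errors (SE) come from fragments estimated from the deposited values and cover counting error only. In bulk RNA, fewer cells in a phase of the cycle and less RNA per cell cannot be told apart.

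The libraries were checked against their labels. FLI1, which gives the DNA-binding part of the fusion, had 2.14 scaled FPKM in the knockdown library, 17.6 with YK-4-279 and 21.5 in the control. Of 9 compared Ewing sarcoma markers, 7 were lower in the knockdown library, beside 17% of all compared genes. With the median of genes of similar level subtracted, as described below, 6 were lower. No share of all genes called was counted after that subtraction, here or below. With YK-4-279, 0 were lower, beside 1.69% of all compared genes, so that count says little about the treatment. CD99 was listed at 0 in all 3 libraries. Fibroblast markers summed to 57.9 scaled FPKM in the knockdown library, 28.5 with YK-4-279 and 26.6 in the control, with FAP, PDGFRB and LUM called higher and DCN lower of the 4 compared, and their part in the results below was not tested. No endothelial or blood marker reached 1 scaled FPKM in any library.

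Mitotic kinesins build and move the spindle, align chromosomes and split the cell, and the messenger RNAs of many of them are made mainly in G2 and M phase. Transport kinesins carry vesicles, organelles and RNA along microtubules, and several are known mainly from neurons. Vincristine, the drug in the title of the series, acts on the microtubule track that all of these motors share.

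Mitotic kinesins were the abundant ones in TC32 cells. Summed over the members found, they made up 78.0% of the scaled FPKM of all kinesin motors in the knockdown library, 91.7% with YK-4-279 and 92.0% in the control. Transport kinesins made up 19.9% in the knockdown library, 6.56% with YK-4-279 and 6.63% in the control. In scaled FPKM, which is per length, the mitotic sum was 228 in the knockdown library, 495 with YK-4-279 and 461 in the control, and the transport sum was 58.2 in the knockdown library, 35.5 with YK-4-279 and 33.2 in the control. The mitotic sums and all shares include a locus that joins KIF4B with MRPL22, a gene that is not a kinesin. That locus had 13.97 scaled FPKM in the knockdown library, 58.7 with YK-4-279 and 40.6 in the control. The knockdown library thus held less of the first class and more of the second than either other library, while YK-4-279 and control lay close together.

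**Figure D1:**
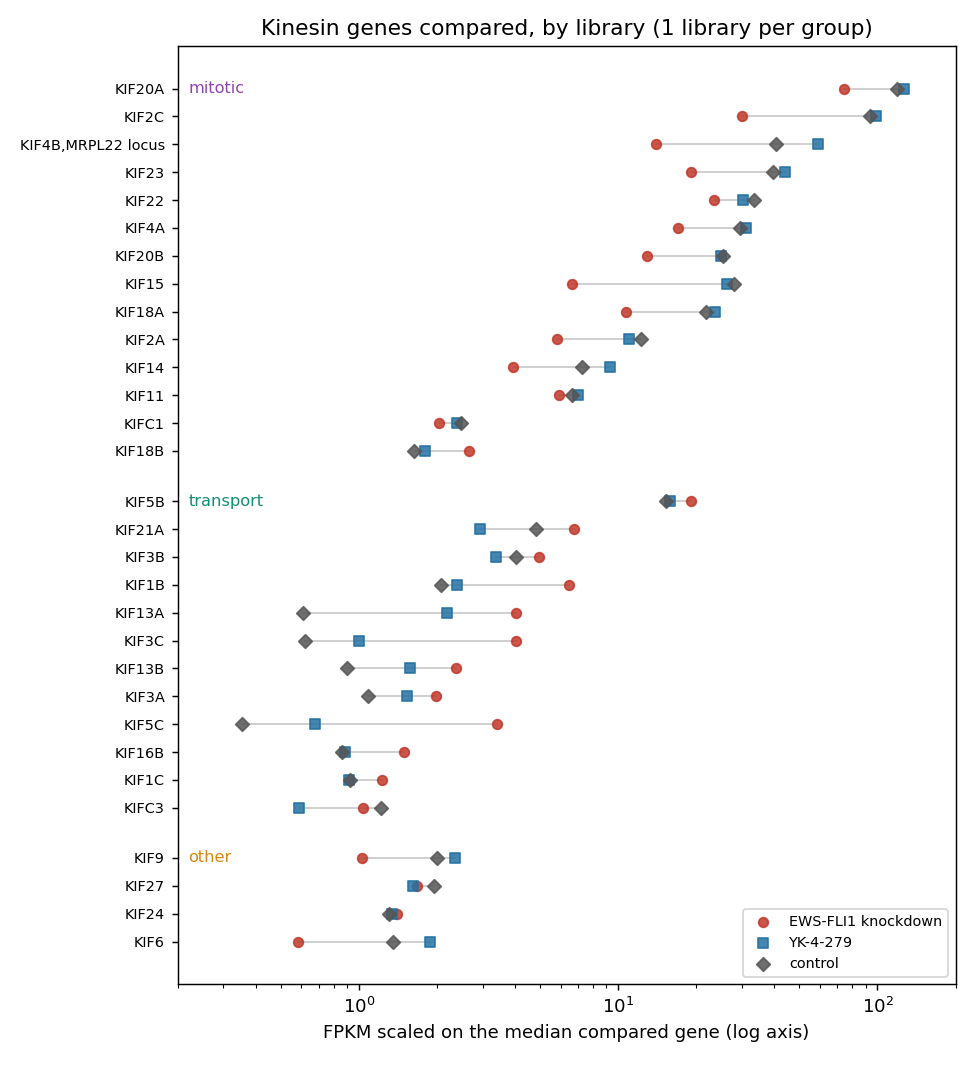
Scaled FPKM (log axis) of the 30 compared kinesin genes, 1 row per gene, grouped by class and ordered by mean level, with 1 point per library and a line from the lowest to the highest library. For most mitotic kinesins the knockdown point lies left of the other libraries, and for KIF1B, KIF13A, KIF3C and KIF5C it lies well to their right.

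After knockdown of EWS-FLI1, 13 of the 14 compared mitotic kinesins lay below the control and 11 of the 12 compared transport kinesins lay above it. Of all 9939 compared genes, 4933 lay below the control and 4997 above it. Past the threshold, 4 mitotic kinesins were lower and 0 higher, beside 17% of all 9939 compared genes called lower, and 4 transport kinesins were higher and 0 lower, beside 17.3% of all genes called higher. The median log2 ratio was -0.84 over mitotic kinesins and 0.47 over transport kinesins, beside 0.0064 over all compared genes. Abundant genes in general were lower in the knockdown library: with genes split by level into 5 groups of equal size, the top group had a median of -0.89 over all genes and the bottom group 0.45. Of the mitotic kinesins, 10 stood in the 2 most abundant groups, and 9 of the transport kinesins stood in the 2 least abundant. With the median of the same level group subtracted, the mitotic median was -0.52 with 1 gene called lower, and the transport median was 0.33 with 3 called higher. These counts after subtraction have no share of all genes beside them. The mitotic KIF20A, KIF22 and KIF4A then lay above 0, and the transport kinesins KIF16B, KIF1C and KIFC3 below it.

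**Figure D2:**
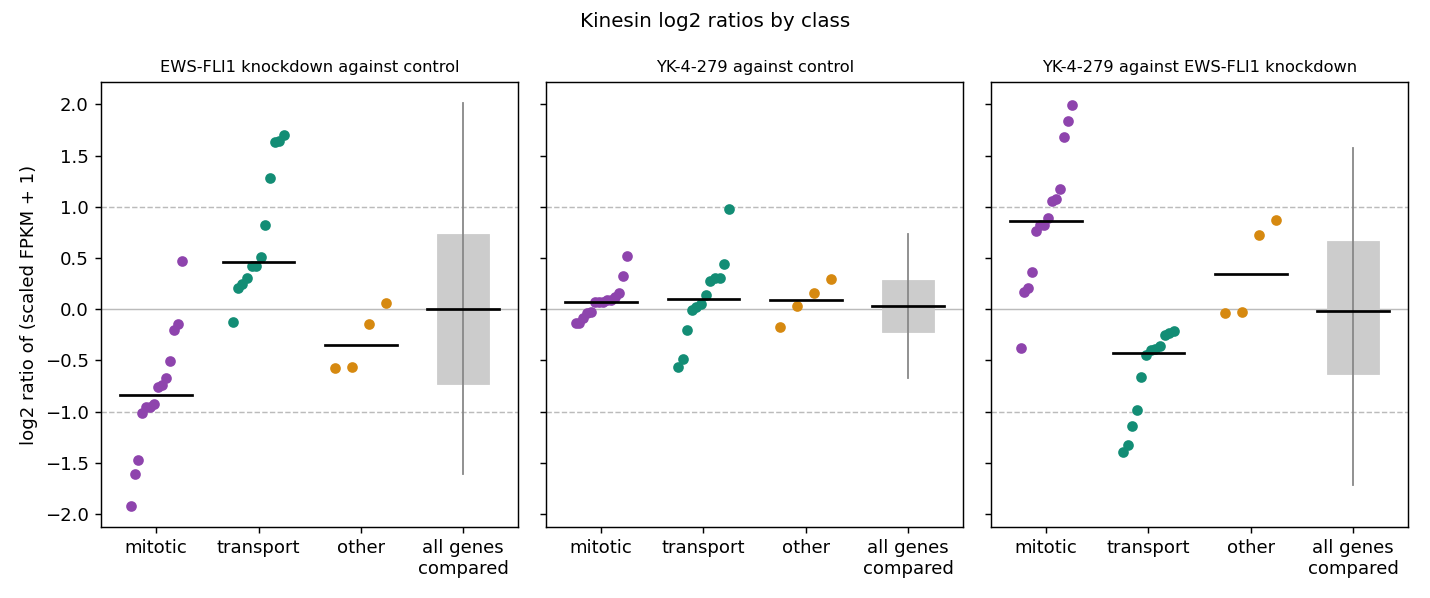
Log2 ratios of compared kinesins by class in the 3 comparisons, 1 point per gene with a bar at the class median. Grey boxes span the middle 50% and grey lines the middle 90% of all 9939 compared genes, and dashed lines mark the threshold of 1. The classes part in the 2 comparisons that hold the knockdown library and overlap in that of YK-4-279 against control.

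**Figure D3:**
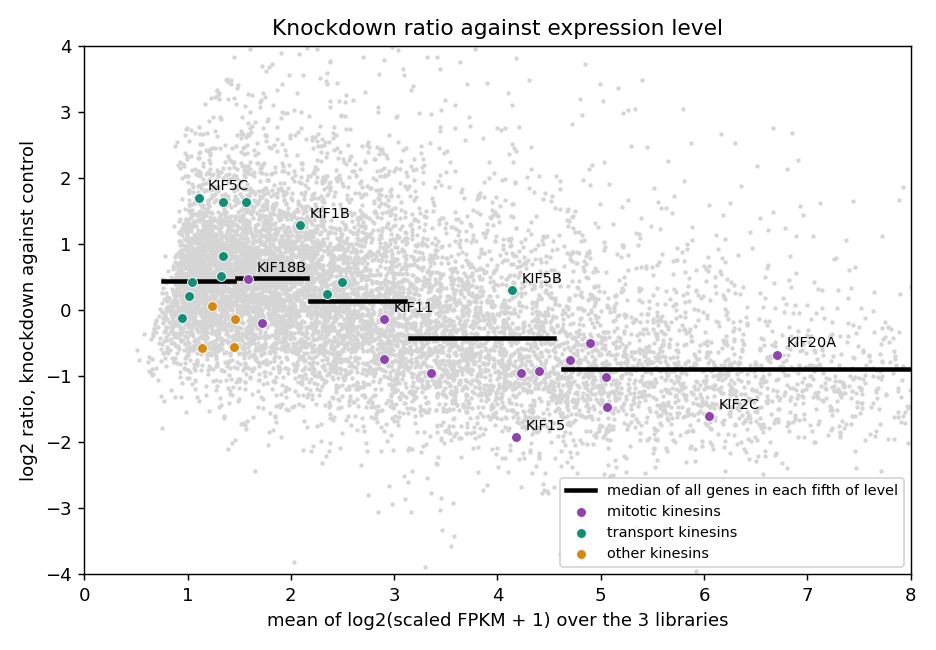
Log2 ratio of the knockdown library against control (vertical) over the mean log2 level of each gene in the 3 libraries (horizontal), with all compared genes in grey, kinesins in colour and black bars at the median of each of 5 level groups. Genes outside the axes are not drawn. KIF15 and KIF2C lie below the bar of their level, KIF20A lies above its bar, and KIF5C, KIF3C, KIF13A and KIF1B lie above theirs.

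The motors of the central spindle and cytokinesis include the most abundant kinesin. KIF20A, a kinesin-6 that brings the chromosomal passenger complex to the midzone, had 74.1 scaled FPKM in the knockdown library, 126 with YK-4-279 and 119 in the control, the highest of all kinesins in every library. Its log2 ratio in the knockdown library was -0.67 (SE 0.02), and 0.22 once the median of its level was subtracted, which is above the median of other genes as abundant. KIF23, the kinesin-6 subunit of centralspindlin, had 19.03 scaled FPKM in the knockdown library, 44.1 with YK-4-279 and 39.5 in the control, and was called lower at -1.02 (SE 0.03). That value lies at the threshold, and -0.12 was left after subtraction. KIF20B, the remaining kinesin-6, stood at 12.9, 24.8 and 25.4 scaled FPKM in the knockdown, YK-4-279 and control libraries and at -0.92, just inside the threshold. KIF14, a kinesin-3 that works with citron kinase at the midbody, had 3.93 scaled FPKM in the knockdown library, 9.28 with YK-4-279 and 7.22 in the control. Its log2 ratio after knockdown was -0.74 (SE 0.04), or -0.88 with the median of its level subtracted.

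The motors that shorten microtubules include the kinesin that ranked 2 in every library. KIF2C, a kinesin-13 that corrects faulty attachments at the kinetochore, had 30.03 scaled FPKM in the knockdown library, 98.3 with YK-4-279 and 93.5 in the control. It was 3.05-fold lower in the knockdown library (log2 ratio -1.61, SE 0.04), or -0.71 with the median of its level subtracted, and 1.05-fold above the control with YK-4-279. KIF2A, the kinesin-13 of spindle poles that also trims axon branches in neurons, had 5.81, 11.0 and 12.2 scaled FPKM in the knockdown, YK-4-279 and control libraries. KIF18A, a kinesin-8 that damps chromosome movements, had 10.7, 23.7 and 21.8. Their log2 ratios after knockdown were -0.96 for KIF2A and -0.95 for KIF18A, just inside the threshold. KIF18B, the other mitotic kinesin-8, was the 1 mitotic kinesin above the control after knockdown, with 2.65 scaled FPKM there, 1.7995 with YK-4-279 and 1.63 in the control (log2 ratio 0.47, SE 0.09), which is what genes of its level did, with -0.01 left after subtraction. KIF2B, the remaining kinesin-13, was at most 0.0327 scaled FPKM in any library and was not compared.

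The 2 motors that push spindle poles apart differed. KIF15, the kinesin-12 that backs up KIF11, had 6.61 scaled FPKM in the knockdown library, 26.3 with YK-4-279 and 27.9 in the control. It was 3.80-fold lower after knockdown (log2 ratio -1.93, SE 0.05), the lowest of all compared kinesins, and was the 1 mitotic kinesin still called after the median of its level was subtracted, at -1.50. KIF11, the kinesin-5 known as Eg5 and the target of several antimitotic compounds, had 5.90 scaled FPKM in the knockdown library, 6.99 with YK-4-279 and 6.61 in the control (log2 ratio -0.14, SE 0.05). The 3 libraries lay close together for KIF11, while for KIF15 the knockdown library stood far below the other pair. KIFC1, the minus-end-directed kinesin-14 that clusters centrosomes, had 2.03, 2.3985 and 2.48 scaled FPKM in the knockdown, YK-4-279 and control libraries. It was listed on 3 loci, 2 of which were at 0 throughout, and its log2 ratio of -0.20 after knockdown has an SE of 0.17. With the median of its level subtracted, KIFC1 stood at -0.68.

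The chromokinesins bind chromosome arms. KIF22 had 23.4 scaled FPKM in the knockdown library, 30.3 with YK-4-279 and 33.5 in the control, and KIF4A, a kinesin-4 that also works at the midzone, had 17.1, 31.0 and 29.5. Their log2 ratios after knockdown were -0.50 and -0.76, which is 0.39 and 0.14 above the median of their level. KIF4B, an intronless copy of KIF4A, was listed on 1 locus joined with MRPL22, a mitochondrial ribosomal protein gene that had no locus of its own. In the reference annotation no protein-coding gene lies between these neighbours, and reads from KIF4A may also have been counted there. That joint locus had 13.97 scaled FPKM in the knockdown library, 58.7 with YK-4-279 and 40.6 in the control, and its call (log2 ratio -1.47) cannot be assigned to KIF4B. Without it, 3 of 13 mitotic kinesins were called lower after knockdown and the median was -0.76.

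The promoters of these genes were read from a set of RefSeq promoter windows (GRCh38.p14, 250 bases before to 50 after the start site). That set held 34 of the 42 motors. It lacked the transport kinesins KIF5A, KIF13B, KIF21B, KIFC2 and KIFC3, and KIF19, KIF26B and KIF27 of neither class. Genes of G2 and M phase are known to carry a cell cycle genes homology region, read TTTGAA or TTTAAA, often downstream of CCAAT boxes, and both were searched on both strands, each motif counted also where it shares bases with another. TTTGAA was found for 10 of 15 mitotic kinesins and 1 of 12 transport kinesins, beside 18.2% of all 27305 gene symbols in that set. CCAAT was found for 11 mitotic and 4 transport kinesins, beside 39.7% of all symbols, and TTTGAA together with CCAAT in 1 window for 9 mitotic kinesins and 1 transport kinesin, beside 7.26%. TTTAAA was found for 4 mitotic kinesins and 1 transport kinesin, beside 14.5%. The ETS letters CCGGAAGT, the kind of site that FLI1 binds, were found for KIF14, KIF23 and KIFC1 among the mitotic kinesins, for KIF9, and for no transport kinesin, beside 4.95% of all symbols. The repeat GGAAGGAA, at 4.5% of all symbols, and the E2F letters GGCGGGAA, at 3.79%, were found for no kinesin. A match is a run of letters, not a shown site.

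The last 150 bases before the start site are printed for 6 mitotic kinesins and 1 transport kinesin, 5′ to 3′ along the gene, with matches to the homology letters, their variant and the CCAAT box in capitals. Where a match lies on the opposite strand, the capitals show its reverse complement, which is TTCAAA for the homology letters and ATTGG for the box. They show the most abundant kinesin (KIF20A, chr5:138178962-138179111, plus strand), the most reduced after knockdown (KIF15, chr3:44761644-44761793, plus), 1 at the threshold (KIF23, chr15:69414199-69414348, plus), the least changed of the pole-separating pair (KIF11, chr10:92592980-92593129, plus), KIF4A (chrX:70289954-70290103, plus) and its copy KIF4B (chr5:155013605-155013754, plus), and the most abundant transport kinesin (KIF5B, chr10:32056426-32056575, minus).
KIF20A: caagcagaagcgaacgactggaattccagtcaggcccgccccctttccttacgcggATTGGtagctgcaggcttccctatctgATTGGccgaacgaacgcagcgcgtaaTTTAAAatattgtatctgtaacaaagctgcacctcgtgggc
KIF15: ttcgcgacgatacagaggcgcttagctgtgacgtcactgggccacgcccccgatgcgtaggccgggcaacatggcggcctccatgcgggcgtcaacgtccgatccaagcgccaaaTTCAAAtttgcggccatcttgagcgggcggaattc
KIF23: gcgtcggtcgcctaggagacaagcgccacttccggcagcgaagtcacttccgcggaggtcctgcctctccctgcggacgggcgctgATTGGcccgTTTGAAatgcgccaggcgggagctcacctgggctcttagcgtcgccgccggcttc
KIF11: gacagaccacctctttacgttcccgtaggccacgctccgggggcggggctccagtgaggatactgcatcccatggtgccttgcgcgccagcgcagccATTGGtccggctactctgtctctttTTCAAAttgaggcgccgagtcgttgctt
KIF4A: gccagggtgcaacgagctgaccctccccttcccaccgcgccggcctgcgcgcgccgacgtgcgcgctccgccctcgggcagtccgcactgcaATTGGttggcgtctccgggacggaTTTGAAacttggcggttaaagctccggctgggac
KIF4B: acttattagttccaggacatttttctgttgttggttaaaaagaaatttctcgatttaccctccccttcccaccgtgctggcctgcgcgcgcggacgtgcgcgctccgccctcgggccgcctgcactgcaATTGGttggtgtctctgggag
KIF5B: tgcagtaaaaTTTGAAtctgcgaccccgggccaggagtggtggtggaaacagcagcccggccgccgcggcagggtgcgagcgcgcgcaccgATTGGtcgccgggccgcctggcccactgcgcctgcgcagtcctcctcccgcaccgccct
In KIF23, KIF11 and KIF4A the CCAAT match lies upstream of the TTTGAA match, which begins 55, 28 and 34 bases before the start site. In KIF5B the order is the other way, and in KIF4B a TTTGAA match begins at base 4 after the start site, outside the bases printed. The KIF4B window aligns over 144 positions, 93.8% of them identical, with KIF4A from 131 bases before to 13 bases after the KIF4A start site, so the pair are not independent matches. KIF11 and KIF15 both hold a TTTGAA match, and their ratios after knockdown differed as given above.

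**Figure D4:**
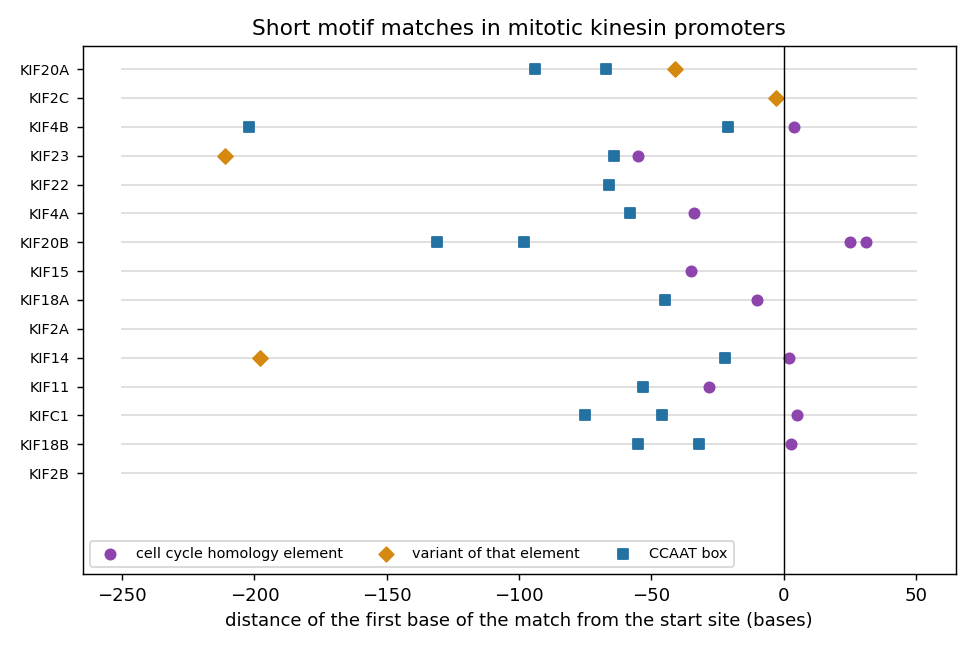
Position of the first base of each match (distance from the start site in bases, start site at the vertical line) to the cell cycle homology letters, their variant and CCAAT in the 300-base promoter windows of the 15 mitotic kinesins, ordered by mean level. For KIF22 the first of 2 windows is drawn. KIF2A and KIF2B show no match, and 9 genes hold both the homology letters and a CCAAT match.

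Transport kinesins were scarcer, and the ones called after knockdown were not the abundant ones. KIF5B, the kinesin-1 heavy chain found in all cells, had 19.1 scaled FPKM in the knockdown library, 15.9 with YK-4-279 and 15.3 in the control. It ranked 4 among kinesins in the knockdown library and 10 in each of the other libraries, with a log2 ratio of 0.30 (SE 0.03) after knockdown, or 0.73 with the median of its level subtracted. KIF5C, a kinesin-1 heavy chain best known from neurons, had 3.41 scaled FPKM in the knockdown library, 0.674 with YK-4-279 and 0.355 in the control. It was 3.25-fold higher after knockdown, the highest of all compared kinesins (log2 ratio 1.70, SE 0.07). KIF5A, another kinesin-1 heavy chain, stayed under 1 scaled FPKM in all 3 libraries and was not compared.

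The kinesin-2 motors work in cilia and in vesicle transport. KIF3C had 4.02 scaled FPKM in the knockdown library, 0.998 with YK-4-279 and 0.617 in the control and was called higher after knockdown (log2 ratio 1.64, SE 0.07). The other compared kinesin-2 motors were not called. KIF3A, which pairs with KIF3B or KIF3C, had 1.98, 1.53 and 1.09 scaled FPKM in the knockdown, YK-4-279 and control libraries, and KIF3B had 4.96, 3.38 and 4.03. KIFAP3, the subunit that links KIF3 motors to cargo, had 37.7 scaled FPKM in the knockdown library, 14.1 with YK-4-279 and 17.0 in the control and was called higher after knockdown at 1.10. The KIF3 subunits thus all lay above the control after knockdown, by different amounts. With the median of their level subtracted, KIF3C was left at 1.19, KIF3B at 0.10 and KIF3A at 0.06, so the last pair lay near other genes of their level.

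Of the transport kinesin-3 motors, KIF13A, which carries endosomes, had 4.02 scaled FPKM in the knockdown library, 2.18 with YK-4-279 and 0.611 in the control. Its log2 ratio after knockdown was 1.64 (SE 0.06). KIF1B, which carries mitochondria and synaptic vesicle precursors, had 6.48 scaled FPKM in the knockdown library, 2.38 with YK-4-279 and 2.07 in the control (log2 ratio 1.28, SE 0.04), and 0.80 was left after the median of its level was subtracted, which ends its call. As deposited, KIF1B had 4.48 FPKM in the knockdown library, 1.12 with YK-4-279 and 6.35 in the control, so its direction rests on the scaling. KIF5C and KIF3C were above the control after knockdown also as deposited, KIF5C with 2.36 against 1.09 FPKM and KIF3C with 2.78 against 1.89, as was KIF13A with 2.78 against 1.87. The other transport kinesins compared (KIF13B, KIF16B, KIF1C, KIF21A and KIFC3) had log2 ratios from -0.12 for KIFC3 to 0.82 for KIF13B. KIF1A, KIF17, KIF21B and KIFC2 stayed under 0.5 scaled FPKM in every library.

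The kinesins of neither class were scarce. KIF9 and KIF6, motors of motile cilia and flagella, had 1.03 and 0.581 scaled FPKM in the knockdown library, 2.34 and 1.89 with YK-4-279, and 1.99 and 1.36 in the control, and neither was called (log2 ratios -0.56 and -0.58 after knockdown). With the median of their level subtracted, these were -1.01 and -1.02, past the threshold. Both genes reached the minimum mean mainly through the control, with 6.12 and 4.16 FPKM there as deposited against 0.711 and 0.402 in the knockdown library. A value below the control is favoured by that choice. KIF27 and KIF24, tied to cilia and centrioles, differed by at most 0.17 on the log2 scale between any 2 libraries. KIF12 was listed at 0 in all 3 libraries.

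With YK-4-279, no compared kinesin of any class passed the threshold in either direction, beside 2.41% of all compared genes called higher and 1.69% called lower, a background so low that 0 of 30 says little. The median log2 ratio against control was 0.07 over mitotic kinesins and 0.10 over transport kinesins, beside 0.03 over all genes, and the mitotic values ran from -0.14 for KIF22 to 0.52 for the joint locus of KIF4B, or to 0.32 for KIF14 without it. KIF13A came closest to the threshold, at 0.98 (SE 0.06), with 2.18 scaled FPKM with YK-4-279 and 0.611 in the control. KIF21A, a kinesin-4 that slows microtubule growth, was the lowest at -0.56 (SE 0.06), with 2.93 scaled FPKM with YK-4-279 and 4.81 in the control. As deposited, all 14 compared mitotic kinesins were called lower with YK-4-279, where the median of all compared genes was -2.20. The comparison shares its control library with that of the knockdown, so these are not independent.

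Set directly against the knockdown library, YK-4-279 gave 6 mitotic kinesins called higher and 0 lower, and 3 transport kinesins called lower and 0 higher, beside 15.3% of all genes called higher and 14.5% called lower. The medians were 0.86 over mitotic and -0.42 over transport kinesins, or 0.53 and -0.28 with the median of the same level group subtracted. Besides the joint locus of KIF4B (log2 ratio 1.997), the mitotic members called were KIF15 at 1.84, KIF2C at 1.68, KIF23 at 1.17, KIF18A at 1.07 and KIF14 at 1.06. KIF5C, KIF3C and KIF1B were the transport members called, at -1.40, -1.33 and -1.14, and KIF21A stood at -0.98. All 12 compared transport kinesins lay lower with YK-4-279 than in the knockdown library, and 13 of 14 mitotic kinesins lay higher. Of all compared genes, 5027 lay lower and 4910 higher. Each of these log2 ratios is the ratio of YK-4-279 against control minus that of the knockdown against control. With YK-4-279 close to the control, the values largely mirror the knockdown result and are not a separate observation. With the median of the same level group subtracted, KIF1C (0.12) and KIF3A (0.10) lay above 0. KIF22 (-0.48), KIF20A (-0.08), KIF4A (-0.01) and KIF18B (-0.01) then lay below it.

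Partners of the mitotic motors were also mostly below the control after knockdown. Of 18 compared partners, 12 were lower and 0 higher after knockdown with a median log2 ratio of -1.37, beside 17% of all compared genes called lower. Of these 18, 15 stood in the most abundant of the 5 level groups, and with the median of the same level group subtracted 3 were lower and the median was -0.49. With YK-4-279, 0 were called and the median was 0.27. Aurora kinase AURKB, which directs KIF2C and KIF20A, was the lowest with 24.9 scaled FPKM in the knockdown library, 95.7 with YK-4-279 and 151 in the control, and ASPM, a spindle pole protein, was the highest at 0.20 after knockdown. AURKB and ASPM were also the ends of the list with YK-4-279, at -0.65 and 0.71. Of 23 other G2/M genes, 10 were lower and 0 higher after knockdown (median -0.99), beside the same 17% of all genes, and 2 were lower with a median of -0.41 once the level group was subtracted. Before subtraction these G2/M genes ran from MAD2L1, a spindle checkpoint protein, at -2.21 to CENPF, a kinetochore protein, at 0.20. For counts after subtraction in both lists, no share of all genes was counted. With YK-4-279 none of the 23 was called (median 0.37), or 1 higher once the level group was subtracted, with cyclin CCNB1 the highest at 0.99 and UBE2C, a ubiquitin-conjugating enzyme of mitotic exit, the lowest at -0.13. CENPE, a mitotic kinesin of the kinetochore whose symbol lies outside the naming rule, had 5.37 scaled FPKM in the knockdown library, 13.2 with YK-4-279 and 11.2 in the control, within the range of the mitotic class. STARD9, another kinesin outside the naming rule, had 1.42, 1.20 and 0.460. It lay above the control after knockdown, at a log2 ratio of 0.73, and its mean was too low for it to be compared.

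Light chains and cargo adaptors lay with the transport motors. All 11 compared were above the control after knockdown, 4 of them called higher, beside 17.3% of all genes, with a median log2 ratio of 0.89. With the median of the same level group subtracted, 4 were higher, with no share of all genes counted beside them, and the median was 0.52. With YK-4-279, 0 were called and the median was 0.19. FEZ2, an adaptor of kinesin-1, was the highest in both comparisons, with 8.75 scaled FPKM in the knockdown library, 4.91 with YK-4-279 and 2.83 in the control. RHOT2, which ties motors to mitochondria, was the lowest after knockdown at 0.01, and SPAG9, a scaffold for motors and JNK kinases, the lowest with YK-4-279 at -0.71. Dynein and dynactin genes, which encode the motor that runs the opposite way, had 4 of 25 higher and 2 lower after knockdown with a median of -0.07, which is near or under the background of 17.3% higher and 17% lower, and 0 called with YK-4-279 with a median of 0.12. DYNC1H1, the dynein heavy chain, was the highest of that list after knockdown, with 28.9 scaled FPKM in the knockdown library, 4.01 with YK-4-279 and 5.12 in the control, and HOOK1, a dynein adaptor, was the lowest at -1.29. With YK-4-279, the light chain DYNLL1 was the highest at 0.61 and DCTN1, the large dynactin subunit, the lowest at -0.47.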

How the data were processed

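The authors deposited FPKM for 88434 loci in each of the 3 libraries, 24751 of them with a gene name. CASAVA 1.8.2, TopHat, Cufflinks 2.2.1 and build GRCh37 (hg19) are named, per the submitters' processing notes. Settings, annotation and any scaling between libraries: not given in the sources used here. Per the file headers, the knockdown values are headed dEF, while the title of that library reads shEF. Loci were summed by name (22714 names), and 9939 with a mean deposited FPKM of at least 1 were compared with a pseudocount of 1 in Python 3.11.15. The control has the largest deposited scale, so among scarce genes this minimum favours those high in the control.

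Scale factors are medians of ratios to the geometric mean over compared genes above 0 in all libraries. Taking compared genes rather than every name above 0 was decided after seeing the data, and the other way is an alternative. The worth of 1 fragment per kilobase (0.0174 FPKM for the knockdown, 0.0127 for YK-4-279, 0.0657 for the control) was read from the lowest values of 156 single-transcript olfactory receptor genes. With GENCODE 29 transcript lengths for 8745 compared genes this gave an estimated 14749416 fragments for the knockdown, 18689678 for YK-4-279 and 24395371 for the control.

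The members and lists were chosen with earlier results of these data known. Named are all compared mitotic kinesins, other kinesins called in any comparison, the 3 most abundant transport kinesins, and the ends of each further list. KIFAP3, KIF3A, the compared kinesins of neither class, and the other transport kinesins given by their range are named besides, chosen after their values were seen. Subtracting level-group medians from the further lists was added after seeing the data.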

Additional observations from a re-analysis of the deposited data

How the results depend on the processing

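No paired analysis was possible because each group has 1 library, and no replicate could be left out. Across the 11 alternatives other than the deposited scale, the medians after knockdown kept their sign, from -1.47 to -0.30 for mitotic and from 0.09 to 0.91 for transport kinesins, as did those of YK-4-279 against knockdown (0.31 to 1.02 and -0.88 to -0.28). Those of YK-4-279 against control did not (-0.42 to 0.16 and -0.23 to 0.18). Both low ends came with factors over every name above 0, where the median of all compared genes was -0.38 in that comparison. As deposited, where the median of all genes was -1.75 in the knockdown library and -2.20 with YK-4-279, the mitotic medians were -2.89 and -2.52 with 14 and 14 called lower, the transport medians -0.86 and -1.39 with 0 called higher after knockdown and 9 lower with YK-4-279, KIF1B turned to -0.42, and 3 mitotic kinesins were higher with YK-4-279 than after knockdown. Mitotic kinesins lower after knockdown numbered 2 at equal sums, 7 at equal upper quartiles, 1 with the median of the level group subtracted, 10 at a threshold of 1.5-fold, 11 with factors over every name above 0 (median -1.47) and 2 with factors over genes of at least 5 FPKM, the last a choice added after seeing the data like the one before. Mitotic kinesins higher with YK-4-279 than after knockdown numbered 3 at equal sums, 3 with the median of the level group subtracted, 10 at 1.5-fold and 3 with factors over genes of at least 5 FPKM, and their median was 1.02 at equal upper quartiles. Transport kinesins higher after knockdown numbered 0 of 3 left by a minimum of 5 FPKM. Those lower with YK-4-279 than after knockdown numbered 5 at equal sums, 0 of 3 at a minimum of 5 FPKM, 1 with the median of the level group subtracted and 5 at 1.5-fold, and 1 was higher with YK-4-279 than in the control at equal upper quartiles, with a pseudocount of 0.1 and at 1.5-fold. No share of all genes called was counted under these settings, so the counts have no background beside them. Equal sums put the median of all genes at 0.47 after knockdown. Factors over every name above 0 put it at -0.50, and factors over genes of at least 5 FPKM at 0.40. The cause of these moves was not tested beyond what each setting changes by construction. Counting error is small for abundant members (SE from 0.02) and largest for KIFC3 and KIFC1.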

Other observations

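KIF26B, a kinesin-11 known from cell adhesion and movement in development, was left out of the comparisons by its low mean and was singled out here after its values were seen. Its 3 loci summed to 0.529 FPKM as deposited in the knockdown library, 0.915 with YK-4-279 and 0.308 in the control. That sum is higher with YK-4-279 although most genes were lower there on that scale, but the loci differed. A locus with 0.156 FPKM with YK-4-279 had 0.178 in the control, while the others had 0.369 against 0.0876 and 0.391 against 0.0421. Scaled, KIF26B had 0.764 FPKM in the knockdown library, 1.94 with YK-4-279 and 0.1003 in the control, a log2 ratio of 1.42 with YK-4-279 (SE 0.04) from about 699 estimated fragments against 45. These fragments come from the sum of the loci and the length of a whole transcript, so they may be too many and the SE too small. No compared kinesin had as high a log2 ratio with YK-4-279. KIF9-AS1, the antisense RNA, had 0.682 scaled FPKM in the knockdown library, 0.320 with YK-4-279 and 0.137 in the control, while KIF9 itself was lowest in the knockdown library. Whether the counting used strand is not given in the sources used here, so reads of the pair cannot be told apart.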
